A study of Mus musculus with 9 samples.

Results

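The zinc exporters and metallothioneins examined here were 9 named genes, Slc30a1, Slc30a2, Slc30a4, Slc30a5, Slc30a6, Slc30a7, Slc30a9, Mt1 and Mt2, of 14971 protein-coding genes listed for mouse tibialis anterior, a fast muscle at the front of the lower leg. They were taken by symbol. The set was chosen by a measured value, the higher normalised count of Slc30a2 after dihydrotestosterone (DHT), so its difference between the DHT-treated and untreated orchiectomised groups is given only as a description. All mice were male C57BL/6J. The control mice appear as sham in the count tables, the ORX mice were orchiectomised (testes removed), and the ORX+DHT mice were orchiectomised and given DHT, the potent androgen made from testosterone. Each group had 3 polyA RNA libraries from muscle taken 4 weeks after treatment, 9 in all. The labels used here give neither the age of the mice nor the dose and route of DHT. They call the replicates biological but do not say whether each came from a separate animal, so p-values measure the spread between these samples.

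Zinc is held at a very low free concentration inside cells. SLC30 (ZnT) proteins move it out of the cytosol, either across the plasma membrane or into vesicles and organelles, and SLC39 (ZIP) proteins move it the other way. Metallothioneins are small cysteine-rich proteins that bind zinc and copper in the cytosol. The zinc-sensing transcription factor MTF1 activates metallothionein genes and Slc30a1 when free zinc rises, through metal response elements in their promoters, and glucocorticoids also induce metallothioneins. Skeletal muscle holds a large part of the body's zinc.

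The promoters are shown because the metallothioneins and Slc30a1 are the classical targets of zinc sensing, while Slc30a2 is the member with the largest differences between these groups. RefSeq promoter windows (GRCm38.p6, from 250 bases before to 50 bases after a gene's start) were matched for all 9 genes and searched on both strands for the metal response element core, written as TGCACNC and TGCGCNC. Matches on opposite strands could overlap. At least 1 match was in 6 of the 9 windows, against 25.7% of 32851 windows of this length over all genes. Slc30a1 and Slc30a2 had 2 matches each, Slc30a4 and Mt1 had 3, Mt2 had 4, Slc30a5 had 1, and Slc30a6, Slc30a7 and Slc30a9 had 0. The matches of 4 genes follow on the gene's strand, 5′ to 3′, with the match in capitals (a match on the other strand reads as its reverse complement).
Mt1 site 1: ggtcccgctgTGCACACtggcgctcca
Mt1 site 2: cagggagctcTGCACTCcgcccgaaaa
Mt1 site 3: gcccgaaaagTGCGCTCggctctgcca
Mt2 site 1: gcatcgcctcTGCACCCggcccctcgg
Mt2 site 2: gcagacccttTGCGCTCagctcctttg
Mt2 site 3: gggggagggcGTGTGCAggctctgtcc
Mt2 site 4: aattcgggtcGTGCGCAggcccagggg
Slc30a1 site 1: cgggggttccGAGTGCAaagcaaagtt
Slc30a1 site 2: cctccgggccGAGCGCAgtcgccgcgg
Slc30a2 site 1: ccatcgtcccGCGCGCAacttcgaggg
Slc30a2 site 2: gcaacttcgaGGGCGCAccgagagagg

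The Mt1 stretches lie at chr8:94179056-94179082, chr8:94179081-94179107 and chr8:94179099-94179125 on the plus strand. The first is upstream of every Mt1 transcript in GENCODE M21, and the other 2 are in the UTR of 1 of its 3 transcripts. The Mt2 stretches lie at chr8:94172385-94172411, chr8:94172480-94172506, chr8:94172558-94172584 and chr8:94172612-94172638 on the plus strand, all outside the M21 transcripts of Mt2. The Slc30a1 stretches lie at chr1:191906728-191906754, upstream of both M21 transcripts, and chr1:191906801-191906827, in the UTR of 1 of 2. The Slc30a2 stretches overlap each other, at chr4:134343242-134343268 and chr4:134343256-134343282, and lie in the UTR of 2 of its 4 M21 transcripts and upstream of the remaining 2. The full androgen response element (AGAACA, any 3 bases, then TGTTCT) was in 0 of the 9 windows and in 0.00913% of all windows, and its half-site AGAACA alone was in 2 of the 9 (Slc30a5 and Slc30a6) and in 19% of all windows. A match is a run of letters and not a measured binding site, and the absence of one says only that these letters are not in this window.

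Levels are given as normalised counts, read counts scaled for sequencing depth so that libraries can be compared. The libraries held 1340209 to 1682235 reads, so most of these genes were measured with few reads, and over the 27 pairs of gene and group the SD between libraries was at most 1.67 times the SD that counting reads alone gives (median 1.09 times). In a principal component analysis, 1 control library stood apart on the first component (30.7% of the variance), with a score of 47.2 against -10.6 to -0.72 for the other 8. It is control 1 below, and results that turn on it are given with and without it. Markers of the muscle fibre were abundant in all libraries, with a summed level over 5 of 5 genes of 183487 to 261367.

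Slc30a2 (ENSMUSG00000028836; GRCm38 chr4:134343181-134354484, plus strand) was the member with the largest differences between groups, low in ORX and high in ORX+DHT. It encodes ZnT2, which loads zinc into intracellular vesicles and is best known from the mammary gland, where its loss gives zinc-poor milk. Its normalised count was 42.5, 39.8 and 23.8 in control libraries 1 to 3, then 1.96, 8.53 and 7.44 in ORX, and 46.6, 49.3 and 64.2 in ORX+DHT. Every ORX library was below every library of the other groups, and every control library was below every ORX+DHT library, by a small margin (42.5 against 46.6).

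The group levels of Slc30a2 were 35.4 ± 10.1 in controls, 5.98 ± 3.52 in ORX and 53.4 ± 9.49 in ORX+DHT (mean ± SD, n = 3 each). They rest on 34, 36 and 24 reads in control, 2, 10 and 9 reads in ORX and 46, 51 and 65 reads in ORX+DHT. By ratio of means, control was 5.91 times ORX, ORX+DHT was 8.93 times ORX and ORX+DHT was 1.51 times control. The low ORX level was below the filter of a mean of 10, so the gene entered the tests only through the groups in which it was high.

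**Figure D1:**
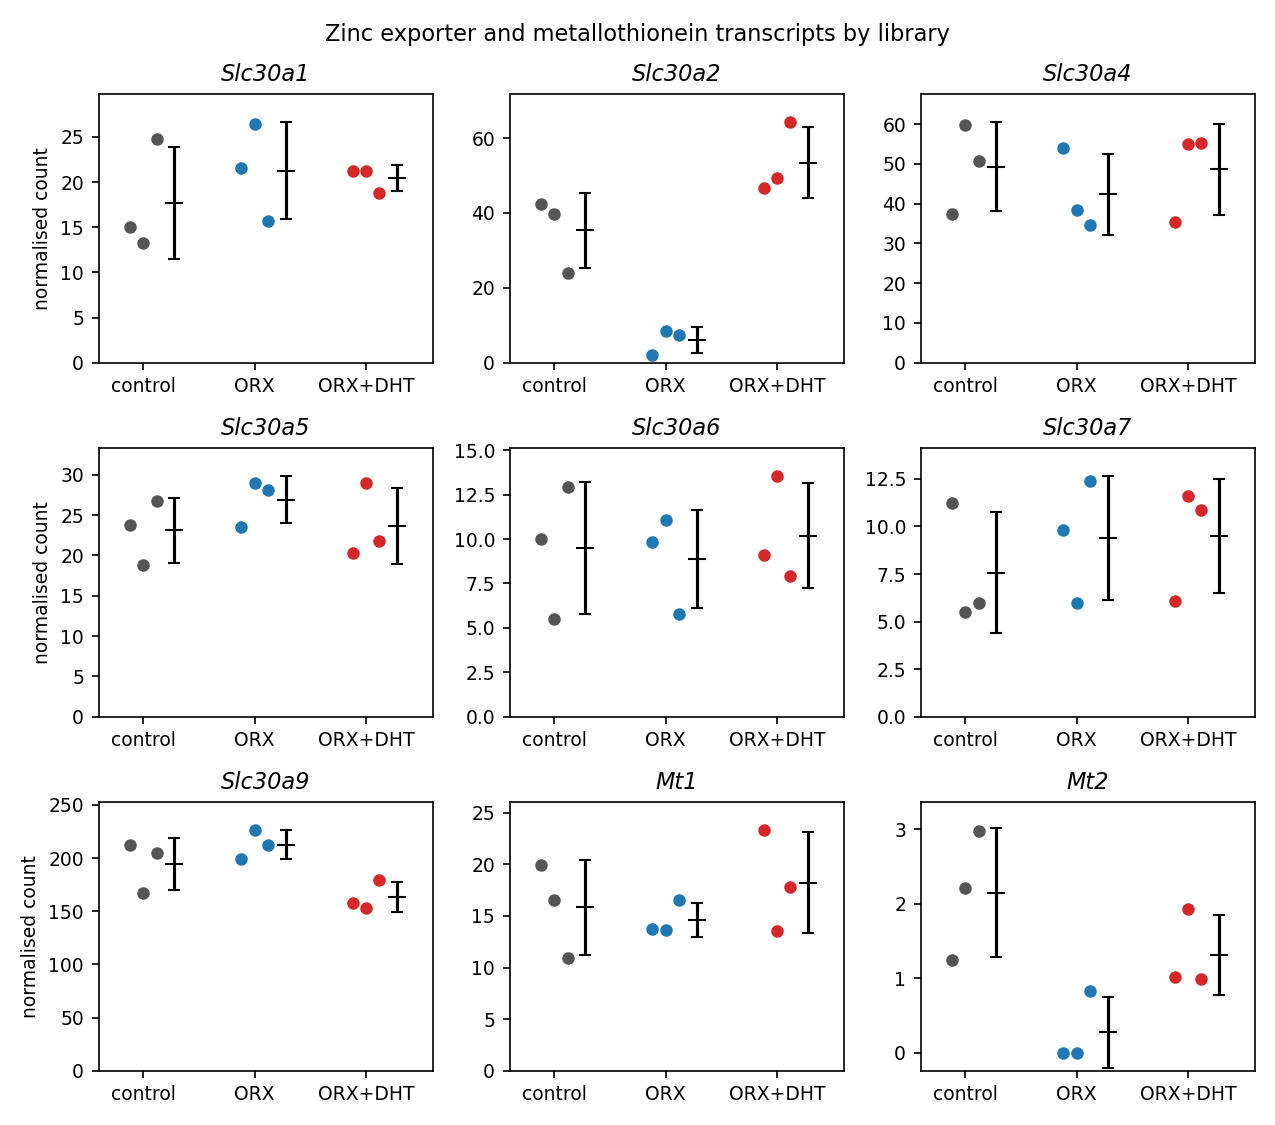
Normalised count of each of the 9 transcripts (y axes, a separate linear scale for each gene) in control, ORX and ORX+DHT muscle; points are libraries, and bars mark the mean and SD of 3. Slc30a2 lies between 1.96 and 8.53 in ORX and at or above 23.8 in the other groups, while most other genes overlap across groups.

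Orchiectomy was tested against control with limma on log2(normalised count + 1), with adjusted p-values over all 8631 genes tested. Few genes in the muscle passed this comparison: 0.0579% of them were called (5 genes). For Slc30a2 the difference was -2.51 on this log2 scale (SE 0.44, 95% interval -3.48 to -1.55). Limma gave it an unadjusted p of 0.000119 and an adjusted p of 0.0840, which did not pass 0.05. These p-values are only a description. The selection had used the same ORX libraries, and Slc30a2 passed the filter here only through the controls. Of the 9 genes, 6 were tested and 0 were called by limma, 1 had an unadjusted p under 0.05 (Slc30a2; 7.21% of all genes did), edgeR called 0 and DESeq2 called 1 (Slc30a2).

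Whether Slc30a2 passed depended on single libraries and on settings. Without control 1 the difference was -2.36 and the limma adjusted p was 0.0403. Leaving out any 1 of the other libraries gave limma adjusted p-values of 0.0522 (without control 3) to 0.258 (without control 2). Slc30a2 was the 1 of 6 tested members whose groups did not overlap, beside 14.3% of all genes tested. The ORX libraries are the same ones against which DHT was set when Slc30a2 was picked, so the difference here is not independent of the one after DHT and adds no separate support to it.

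After DHT the difference of Slc30a2 from ORX was 3.13 on the log2 scale (SE 0.36), shown without a test. Against control, ORX+DHT was 0.61 higher (SE 0.25, 95% interval 0.06 to 1.16), with a limma adjusted p of 0.736. That comparison shares the ORX+DHT libraries with the one above, so for Slc30a2 it adds no separate support. In it limma called 0.0349% of 8595 genes, and of the 9 genes 6 were tested and 0 were called by limma, edgeR or DESeq2, with 1 (Slc30a2) at an unadjusted p under 0.05, beside 6.48% of all genes. The groups did not overlap for that 1 member, beside 14% of all genes.

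In whole muscle, fewer cells of a type and less RNA per cell cannot be told apart. Summed fibroblast markers (3 of 3 genes) ranged from 830 to 1606 in controls, 1852 to 2439 in ORX, and only 932 to 1361 in ORX+DHT. Most of that sum was the collagen gene Col1a1, which averaged 846, 1682 and 750 in these groups. The other 2 markers differed less, with Dcn at 350, 398 and 377 and Pdgfra at 20.3, 19.2 and 17.8. Summed Schwann cell markers (2 of 2) ranged from 69.5 to 77.4, 108 to 111 and 71.9 to 87.9. Both sums were therefore highest in ORX, where Slc30a2 was lowest, but Pdgfra alone was not. The muscle fibre sum was, like Slc30a2, lowest in ORX, with every ORX library (183487 to 196559) below every control (226098 to 261367) and ORX+DHT library (206951 to 223552). Unlike Slc30a2, it was lower in every ORX+DHT library than in every control. With DHT against ORX, 2 of its 5 genes, Acta1 and Myh1, were called higher, beside 2.38% of all genes. Acta1 averaged 65161 in controls, 46595 in ORX and 64542 in ORX+DHT, and Myh1 averaged 25650, 22410 and 30857. Myh4 averaged 92578 in controls, 80660 in ORX and 76012 in ORX+DHT. Ckm averaged 22526, 17704 and 18525 in the same order, and Tnnt3 averaged 34285, 24827 and 28018. Macrophage sums (3 of 3 genes) ranged from 13.3 to 18.7, 19.6 to 26.5 and 20.3 to 26.7 in controls, ORX and ORX+DHT, and adipocyte sums (2 of 2) from 0 to 2.497, 4.91 to 19.0 and 2.03 to 16.8. Endothelial sums (3 of 3 genes) spanned 491.9 to 689.9 in controls, and with DHT they spanned 693.1 to 759.9. Every ORX+DHT library was thus above every control, as for Slc30a2. Unlike Slc30a2, the endothelial sums of ORX libraries, between 558.3 and 696.0, overlapped both other groups. Satellite cell, red blood cell and smooth muscle sums overlapped between all groups. The part of these cell types in the result was not tested. Of the epithelial markers, which would point to a secretory gland, only Cdh1 was analysed (1 of 6), with at most 1 read in a library and none in 3 libraries.

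**Figure D2:**
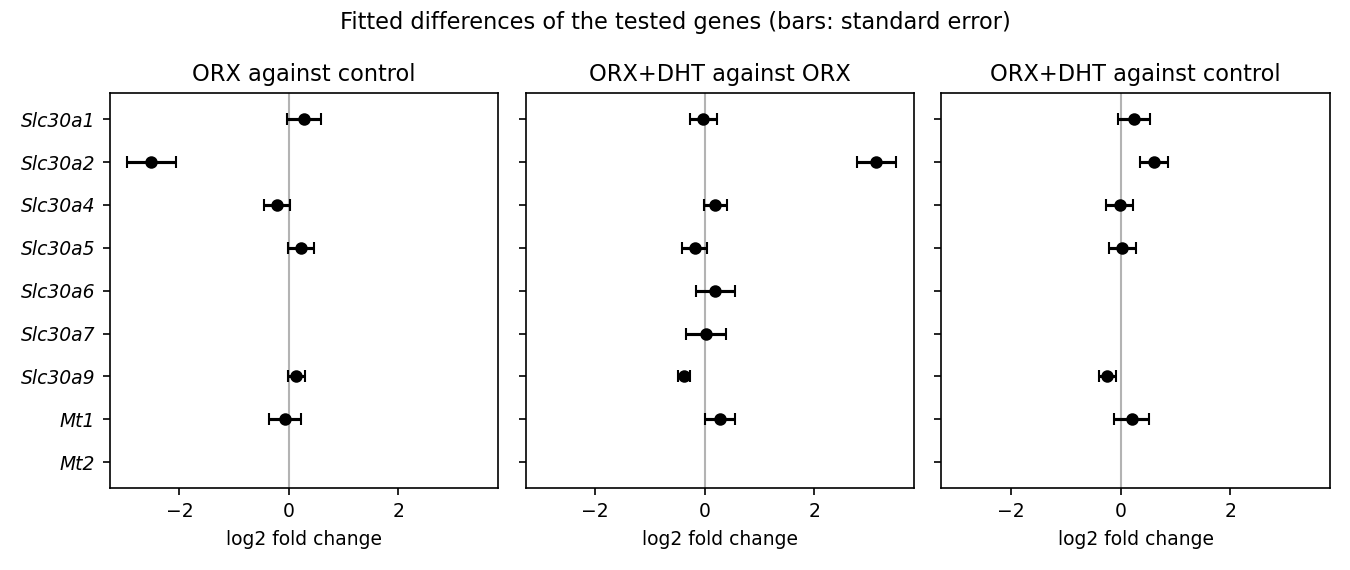
Fitted log2 fold changes (x axes) of the tested genes for orchiectomy (ORX against control), for DHT (ORX+DHT against ORX) and for DHT-treated mice against controls; points are limma estimates, bars are standard errors, and genes below the mean of 10 have no point. Slc30a2 stands at -2.51, 3.13 and 0.61, and the other genes stand between -0.38 and 0.27 in all panels.

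The other vesicular exporter and the plasma-membrane exporter had overlapping groups. Slc30a1 (chr1:191906767-191913247, plus strand) encodes ZnT1, the exporter of the plasma membrane and an MTF1 target. It had normalised counts of 15.0, 13.3 and 24.8 in controls, 21.6, 26.4 and 15.7 in ORX and 21.3, 21.3 and 18.8 in ORX+DHT, with all groups overlapping. Its difference between ORX and control was 0.27 (SE 0.31, 95% interval -0.40 to 0.94, limma adjusted p 0.842). Over the 5 tested genes other than Slc30a2, the lowest bound of the 95% intervals was 0.60-fold (Slc30a4) and the highest 1.92-fold (Slc30a1). The narrowest interval was that of Slc30a9, from 0.87-fold to 1.38-fold. For each gene, changes within its own interval are not excluded.

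Slc30a4 (chr2:122681233-122702663, minus strand) encodes ZnT4, a vesicular exporter mutated in lethal milk mice and thus a close functional neighbour of Slc30a2. Its normalised counts were 37.5, 59.7 and 50.7 in controls, 54.0, 38.4 and 34.7 in ORX and 35.5, 55.1 and 55.3 in ORX+DHT. The groups overlapped, and ORX differed from control by -0.21 (SE 0.24, limma adjusted p 0.840). In ORX, where Slc30a2 averaged 5.98, Slc30a4 averaged 42.4 ± 10.2 (SD, n = 3).

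Slc30a5, Slc30a6 and Slc30a7 encode the transporters that carry zinc into the early secretory pathway, where enzymes such as alkaline phosphatase receive it. Slc30a5 (chr13:100802648-100833427, minus strand) had normalised counts of 23.7, 18.8 and 26.8 in controls, 23.6, 29.0 and 28.1 in ORX and 20.3, 29.0 and 21.7 in ORX+DHT. ORX differed from control by 0.22 (SE 0.24, limma adjusted p 0.836), and the groups overlapped. ZnT5 works as a heteromer with ZnT6, the product of Slc30a6.

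Slc30a6 (chr17:74395608-74424221, plus strand) ranged from 5.53 to 13.5 over the 9 libraries, with group means of 9.48 ± 3.72 in controls, 8.90 ± 2.77 in ORX and 10.2 ± 2.96 in ORX+DHT. Slc30a7 (chr3:115938973-116007406, minus strand) ranged from 5.53 to 12.4, with group means of 7.57 ± 3.18, 9.40 ± 3.24 and 9.52 ± 2.999 in the same order. Both stayed below the filter in the comparisons with control and were fitted only in ORX+DHT against ORX, where their differences were 0.19 (SE 0.36) and 0.02 (SE 0.37). At 5 to 15 reads a library these values carry wide counting error.

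Slc30a9 (chr5:67306955-67358443, plus strand), whose product exports zinc from mitochondria, was the most abundant of the exporters by read count and the best measured. Its normalised counts were 212, 167 and 205 in controls, 199, 226 and 213 in ORX and 158, 153 and 179 in ORX+DHT. Control and ORX overlapped, whereas each ORX+DHT library was below each ORX library. ORX differed from control by 0.13 (SE 0.15, limma adjusted p 0.847) and ORX+DHT from control by -0.25 (SE 0.15, 95% interval -0.59 to 0.09, limma adjusted p 0.746). Its difference after DHT was -0.38 (SE 0.10), which belongs to the contrast that chose the genes and is given without a test.

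In the contrast of ORX+DHT with ORX, 8 of the 9 genes passed the filter, and 1 (Slc30a2) lay past the limma threshold, which its selection on this contrast had fixed. Over all 8770 genes 4.08% were called (2.38% higher and 1.7% lower). Among the 8, the groups did not overlap for 2, Slc30a2 and Slc30a9, and over all genes for 19.5%. Both counts are a description and nothing is read from them, because the contrast had chosen the genes. The median log2 difference of the tested members was 0.03 after orchiectomy, 0.11 after DHT and 0.11 between DHT-treated mice and controls, beside -0.01, 0.01 and -0.01 over all genes.

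**Figure D3:**
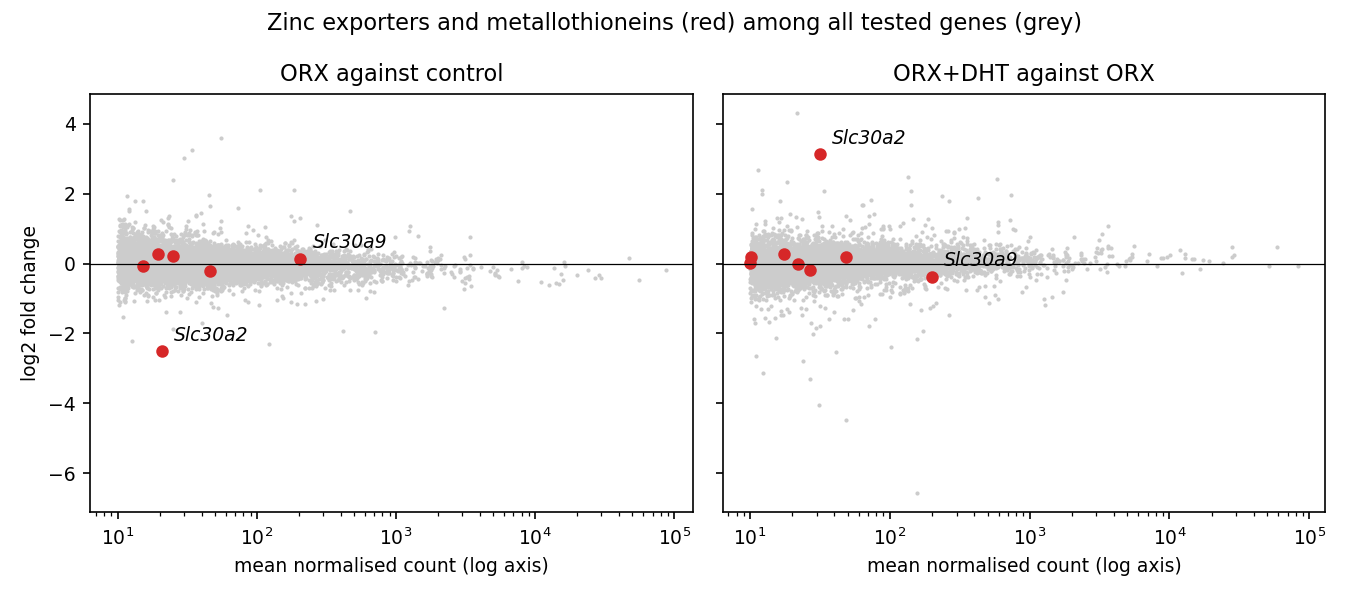
Log2 fold change (y axis) against mean normalised count (x axis, log scale) of every tested gene, for ORX against control on the left and for ORX+DHT against ORX on the right; red points are the zinc exporters and metallothioneins. Slc30a2 stands at the edge of the cloud at -2.51 and 3.13, and the other red points lie within it.

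Mt1 (ENSMUSG00000031765; chr8:94179082-94180327, plus strand) overlapped between all groups. Its normalised counts were 19.98, 16.6 and 10.9 in controls, 13.7, 13.6 and 16.5 in ORX and 23.3, 13.5 and 17.8 in ORX+DHT, from 11 to 23 reads a library. Its highest value was in ORX+DHT and its lowest in controls. ORX differed from control by -0.07 (SE 0.30, 95% interval -0.73 to 0.58, limma adjusted p 0.972), ORX+DHT from control by 0.20 (SE 0.31, limma adjusted p 0.887) and ORX+DHT from ORX by 0.27 (SE 0.27).

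Mt2 (ENSMUSG00000031762; chr8:94172664-94173568, plus strand), the neighbouring metallothionein gene, was at the limit of detection. It had 1, 2 and 3 reads in the control libraries, 0, 0 and 1 in ORX and 1, 2 and 1 in ORX+DHT, so that the groups met at 1 read. As normalised counts, ORX (0 to 0.827) lay below controls (1.25 to 2.98) and ORX+DHT (0.988 to 1.93). That separation came from scaling libraries that had 1 read each, and nothing is read from it. No test or fold is given for such counts, since a count of 0 allows up to 3 reads. Mt1 and Mt2 are close paralogues, so reads shared between them could have been counted for either or dropped, and their levels are uncertain. The brain-enriched Mt3 averaged 1.58 in controls, 0.887 in ORX and 0.997 in ORX+DHT, also too low to test, and Mt4 was not analysed here.

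To compare genes with each other, normalised counts were divided by exon length in kilobases (the union of all M21 exons, which overstates the length of any 1 transcript). Per kilobase in control, the order was Slc30a9 at 15.7 ± 1.96, Mt1 at 12.7 ± 3.67, Slc30a2 at 9.92 ± 2.83, Slc30a4 at 8.99 ± 2.04, Mt2 at 3.65 ± 1.47, Slc30a1 at 3.37 ± 1.19, Slc30a5 at 3.17 ± 0.554, Slc30a6 at 3.08 ± 1.21 and Slc30a7 at 0.681 ± 0.286 (mean ± SD, n = 3 each). Neighbours in this order overlapped in their library ranges, except Slc30a4 (6.83 to 10.9) with Mt2 (2.12 to 5.07) and Slc30a6 (1.80 to 4.20) with Slc30a7 (0.497 to 1.01). Slc30a2 thus ranked behind only Slc30a9 and Mt1 in control.

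In ORX, Slc30a2 had 1.68 ± 0.988 per kilobase, behind Slc30a9, Mt1, Slc30a4, Slc30a1, Slc30a5 and Slc30a6. In ORX+DHT it had the highest mean, 15.0 ± 2.66 (range 13.1 to 18.0), overlapping Mt1 (10.9 to 18.7) and Slc30a9 (12.3 to 14.5). As a share of the summed level per kilobase of the 7 exporters, Slc30a2 made up 25.7%, 26.0% and 14.7% in control, 1.45%, 5.86% and 5.89% in ORX and 30.6%, 27.8% and 34.2% in ORX+DHT. Slc30a9 made up 34.9% ± 3.06 in controls, 45.2% ± 3.02 in ORX and 27.4% ± 2.55 in ORX+DHT. These shares are linked, since a lower share of one gene raises the others.

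Summed over the 7 exporters, the normalised count was 337 ± 23.9 in controls, 327 ± 15.7 in ORX and 329 ± 30.5 in ORX+DHT. Without Slc30a2 the other 6 summed to 302 ± 28.8, 321 ± 14.1 and 276 ± 22.6 (SD, n = 3 each). The library ranges of the sum over 7 overlapped between all groups. These sums were not divided by exon length, so Slc30a9 (means of 195, 213 and 163) weighed most in them. The overlap did not hold for the summed level per kilobase over the 7 exporters. On that scale every ORX library lay below every control and ORX+DHT library. Slc30a2 is part of that sum, so its selection bears on it. For the sum of normalised counts over 6, ORX (309 to 337) lay above ORX+DHT (250.3 to 293), and both overlapped controls (269.8 to 326).

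**Figure D4:**
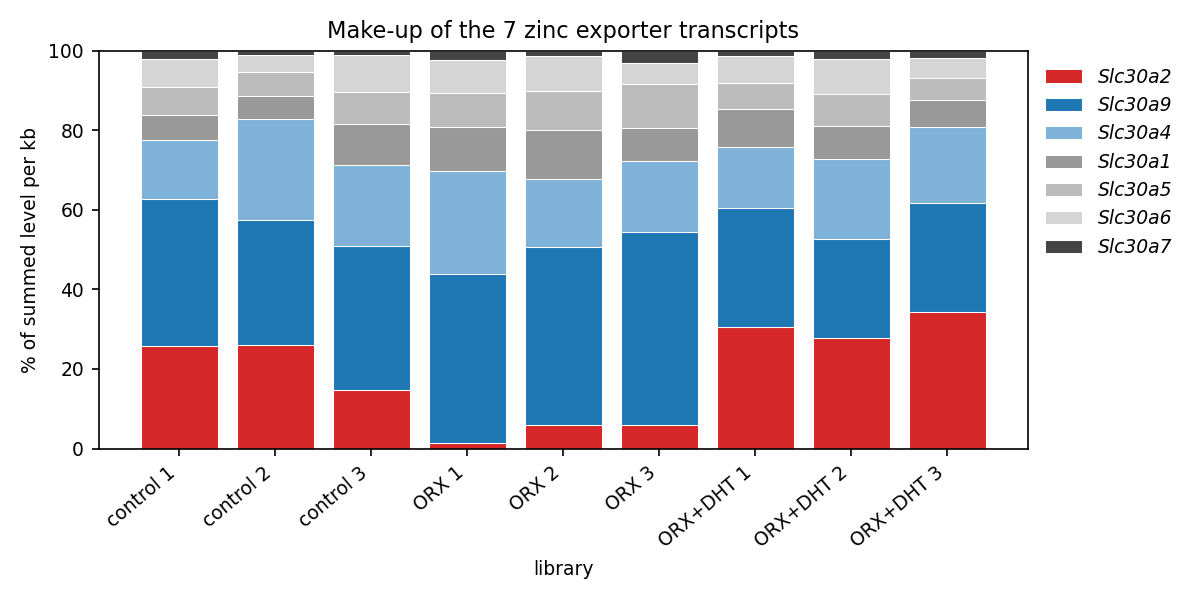
Share of each of the 7 zinc exporters in their summed level per kilobase (y axis, %) in each of the 9 libraries (x axis); every bar is 1 library and adds to 100%. The Slc30a2 segment is 1.45% to 5.89% in ORX, 14.7% to 26.0% in control and 27.8% to 34.2% in ORX+DHT.

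The genes nearest to Slc30a2 in profile were found by the root-mean-square difference of log2(normalised count + 1) over the 9 libraries, each gene centred on its own mean, among 8630 genes. They were Amd1 (0.494), Mettl21c (0.561), Smox (0.664), 1700001O22Rik (0.678) and Actr3b (0.679), where the median over all genes was 1.46. The 9 libraries include those of the contrast that chose Slc30a2. Its nearest genes were therefore bound to be low in ORX and high in ORX+DHT, and the likeness is only a description. Amd1, which encodes S-adenosylmethionine decarboxylase, averaged 662 in controls, 173 in ORX and 928 in ORX+DHT. Mettl21c, a lysine methyltransferase of muscle, averaged 205, 38.0 and 215, and Smox, spermine oxidase, averaged 1139, 281 and 1105.

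1700001O22Rik averaged 14.7, 1.77 and 14.8, and Actr3b, an actin-related protein, averaged 21.5, 3.82 and 19.1. Reads of Amd1 may be shared with a close copy of the gene, which makes its count uncertain. For Mt1 the nearest were Pip4p2 (0.125), Gpr108 (0.134), Fuz (0.137), Dnaaf5 (0.138) and Nup54 (0.146). Mt1 itself deviated by only 0.295 about its mean, so likeness to it means mainly a flat profile (median over all genes 0.395), and Mt2 was too low to rank.

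**Figure D5:**
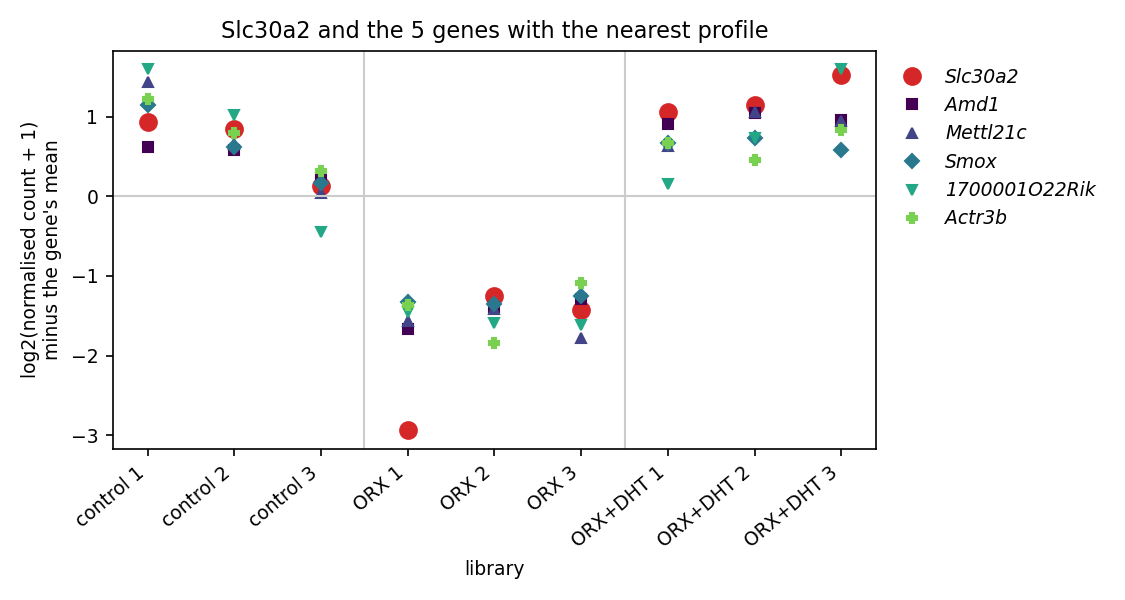
Log2(normalised count + 1) minus the gene's mean over 9 libraries (y axis) for Slc30a2 and the 5 genes with the nearest profile, in each library (x axis). All 6 genes are below their mean in the 3 ORX libraries, and all but 1700001O22Rik in control 3 are above it in the other libraries.

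The zinc importers, which work against the exporters, showed no called difference. Of 14 SLC39 genes 13 were in both tables and 6 passed the filter. Limma, edgeR and DESeq2 each called 0 of the 6 in every comparison, and none had an unadjusted p under 0.05, beside 7.21%, 14.3% and 6.48% of all genes. Their median differences were 0.06 after orchiectomy, -0.06 after DHT and 0.00 between DHT-treated mice and controls.

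Slc39a1, a plasma-membrane importer and the most abundant by read count, averaged 53.4 ± 9.999 in controls, 52.6 ± 3.89 in ORX and 54.5 ± 13.8 in ORX+DHT. Slc39a3 averaged 41.3 ± 8.19, 44.5 ± 2.06 and 40.5 ± 3.57 in the same order. Slc39a14, named after its values were seen, had ORX libraries below both other groups. Its ORX level was 25.1 ± 4.81, against 34.0 ± 0.911 for controls (limma adjusted p 0.695) and 34.7 ± 6.49 with DHT (limma adjusted p 0.357). Slc39a10, also named afterwards, stayed low with DHT. Its ORX and ORX+DHT libraries overlapped, and both lay below every control (-0.36 and -0.35, limma adjusted p 0.768 and 0.764). Over all genes, groups did not overlap for 14.3% after orchiectomy, 19.5% after DHT and 14% between DHT-treated mice and controls. The exporters Slc30a3, Slc30a8 and Slc30a10 were not analysed here.

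Genes of zinc sensing and delivery likewise had no called difference. Of 5 such genes 4 were tested (Mtf1, Trpm7, Mcoln1 and Cbwd1), and limma, edgeR and DESeq2 called 0 in every comparison, with 0 at an unadjusted p under 0.05. Mtf1, the zinc sensor that drives Mt1, Mt2 and Slc30a1, averaged 51.9 ± 2.502 in controls, 47.9 ± 4.67 in ORX and 38.9 ± 6.93 in ORX+DHT. Its difference between ORX+DHT and control was -0.42 (limma adjusted p 0.736). Trpm7, a channel kinase that passes zinc and magnesium, averaged 70.3, 79.3 and 76.5, and Mcoln1, a lysosomal cation channel, averaged 45.3, 48.9 and 50.1.

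Genes of copper and iron handling, with the magnesium transporter Slc41a1, were set beside the zinc genes, and 13 of 15 were tested. With DHT against ORX 3 rose and 0 fell, beside 2.38% and 1.7% of all genes, and the 3 were Slc41a1 and 2 iron transporters. Tfrc, the transferrin receptor for iron uptake, averaged 802 ± 98.4 in controls, 409 ± 109 in ORX and 960 ± 98.8 in ORX+DHT, a rise of 1.25 over ORX (SE 0.14, limma adjusted p 9.93e-06). Slc40a1, the iron exporter ferroportin, averaged 89.9 ± 11.2, 59.9 ± 8.003 and 127 ± 20.3, a rise of 1.07 (SE 0.15, limma adjusted p 0.000140).

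Slc41a1 averaged 234 ± 82.2, 207 ± 10.2 and 288 ± 24.3, a rise of 0.47 (SE 0.099, limma adjusted p 0.00778). That call was lost without ORX+DHT 1 (adjusted p 0.0733) and with all 9 libraries in 1 fit (adjusted p 0.506). The list's median difference with DHT was 0.23, beside 0.01 over all genes. For ORX against control limma called 0 of the 13, with 3 at an unadjusted p under 0.05 (7.21% of all genes), edgeR called 0 and DESeq2 called 1 (Tfrc). For ORX+DHT against control limma, edgeR and DESeq2 called 0, with 1 at an unadjusted p under 0.05 (6.48% of all genes).

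Zinc-dependent enzymes of the secretory pathway included genes that rose and genes that fell with DHT. Of 10 genes 8 were tested with DHT against ORX, of which 2 rose and 2 fell, beside 2.38% and 1.7% of all genes. Ace, angiotensin-converting enzyme, rose by 1.43 (SE 0.19, limma adjusted p 8.13e-05), from 39.4 ± 12.5 in ORX to 105 ± 10.8 in ORX+DHT, with 52.8 ± 13.9 in control. Car14, a membrane carbonic anhydrase, rose by 1.05 (SE 0.16, limma adjusted p 0.000535), from 39.98 ± 1.58 to 85.0 ± 16.3, with 69.5 ± 4.58 in control.

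The matrix metalloproteinases Mmp14 and Mmp2 fell by 1.38 (SE 0.25, limma adjusted p 0.00274) and by 0.84 (SE 0.16, limma adjusted p 0.00347). Mmp14 averaged 27.0 ± 14.0 in controls, 54.3 ± 8.26 in ORX and 21.3 ± 8.01 in ORX+DHT, and Mmp2 averaged 86.2 ± 23.7, 145 ± 37.5 and 79.4 ± 9.04. Both calls were lost with all 9 libraries in 1 fit (adjusted p 0.103 and 0.0913). Of the 3 fibroblast markers, Col1a1 averaged 846, 1682 and 750 in the same groups, Dcn 350, 398 and 377, and Pdgfra 20.3, 19.2 and 17.8. The part of fibroblast content in the 2 differences was not tested. In ORX against control limma called 0 of 7, with 3 at an unadjusted p under 0.05 (7.21% of all genes), and in ORX+DHT against control 0 of 7, with 1 (6.48% of all genes), while edgeR and DESeq2 called 0 in both.

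Because glucocorticoids induce metallothioneins, 18 genes of the glucocorticoid and acute-phase response were counted, of which 16 were tested. With DHT against ORX 2 rose and 2 fell, beside 2.38% and 1.7% of all genes. Fkbp5, a co-chaperone induced by both glucocorticoids and androgens, rose by 1.80 (limma adjusted p 8.03e-06), and Zbtb16, a transcription factor, rose by 1.11 (limma adjusted p 1.74e-05). Zbtb16 averaged 128 ± 33.3 in controls, 106 ± 2.46 in ORX and 231 ± 41.7 in ORX+DHT.

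Tsc22d3, the glucocorticoid-induced leucine zipper, fell by 0.36 (limma adjusted p 0.0247), and Nr3c1, the glucocorticoid receptor, fell by 0.43 (limma adjusted p 0.0380). Those 2 calls were lost in 5 and 7 of 16 alternatives, with adjusted p up to 0.231 and 0.480. They were lost without ORX 2, ORX+DHT 1 or ORX+DHT 3, and that of Nr3c1 also without ORX 1 or ORX+DHT 2. Limma called 0 of the 16 in ORX against control, with 5 at an unadjusted p under 0.05 (7.21% of all genes), where edgeR called 0 and DESeq2 called 1 (Fkbp5), and 0 in ORX+DHT against control, with 3 (6.48% of all genes), where edgeR and DESeq2 called 0.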

How the data were processed

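The authors deposited 2 tables of size-factor normalised counts (a signal scaled within each table) for protein-coding genes, one of control and ORX libraries and one of ORX and ORX+DHT libraries, listing 14596 and 14675 genes. The submitters' processing notes name Trim Galore 0.6.7, HISAT2 2.2.1, featureCounts 2.0.1, DESeq2 1.36.0 and the build GRCm38. The annotation used for counting is not given in the sources used here, and gene positions and lengths come from GENCODE M21. Per the labels' protocols the library kit kept strand. Columns named sham were matched to the control samples by replicate number, and 0 columns were left unmatched. All values (100%) were whole multiples of 1 step per library, which gave back the read counts. In control 3 that step was close to 1, so whole reads and rounding look alike there.

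Levels are on a joint scale: the 14300 genes in both tables were rescaled over all 9 libraries by median-of-ratios factors. Each library pair of a group differed by more than sampling noise. The 3 comparisons used limma 3.58.1 in R 4.3.3, with eBayes trend, on the log2 of value plus 1. Genes had a mean of at least 10, with Benjamini-Hochberg adjustment over all genes and a threshold of 0.05. Orchiectomy (ORX against control) and DHT (ORX+DHT against ORX) were each fitted within one table, and DHT-treated mice were set against controls on the joint scale. On the recovered counts edgeR 4.0.16 called 6, 366 and 4 genes in the 3 comparisons and DESeq2 1.42.0 called 28, 224 and 13, beside 5, 358 and 3 by limma. The limma procedure was tested on simulated data. The members and the gene lists were chosen with earlier results of these data known. All members are named, and of each list up to 5 called genes and up to 3 of the most abundant genes could be named. Intervals from read counts cover counting error only.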

Additional observations from a re-analysis of the deposited data

How the results depend on the processing

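The call of Slc30a2 in ORX against control depended on the settings, and the cause was not tested. Its p-values there are only a description, since the selection had used the same ORX libraries. The number of members called was 0 in limma and 1 (Slc30a2) with a pseudocount of 10 (adjusted p 0.0379), no filter on low values (0.0405), all 9 libraries in 1 fit (0.0107) or DESeq2 (0.00033), and 0 to 1 with a library left out (1 without control 1). The pseudocount of 0.1, TMM scaling, quantile normalisation and edgeR left it above the threshold (0.109, 0.0861, 0.0767 and 0.0541), and its difference was -2.82 to -1.98 with a library left out and -1.51 with a pseudocount of 10. ORX+DHT against ORX had chosen the genes, so its counts are a description: the number past the threshold was 1, and 2 (adding Slc30a9) with a pseudocount of 10, TMM scaling, quantile normalisation or edgeR, and 1 to 2 with a library left out. With a minimum mean of 50 the 1 gene called was Slc30a9, since Slc30a2 was not tested there, and the pseudocount of 10 gave Slc30a2 a difference of 2.04 beside 3.13. In ORX+DHT against control the number called was 0 in every alternative.

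With a library left out, the sign turned for Mt1 in ORX against control (-0.30 to 0.11), for Slc30a1 (-0.22 to 0.14), Slc30a6 (-0.065 to 0.34) and Slc30a7 (-0.24 to 0.29) in ORX+DHT against ORX, and for Slc30a4 (-0.20 to 0.19), Slc30a5 (-0.12 to 0.14) and Mt1 (-0.031 to 0.38) in ORX+DHT against control. None of these was a called difference. Of the values of single members under an alternative, 271 kept direction and call, 13 newly passed the threshold and 11 changed sign.

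Over the pathway lists the number called in ORX against control was 0, and 2 (Fkbp5 and Tfrc) with all 9 libraries in 1 fit or DESeq2, and 0 to 4 with a library left out (4 without control 1). In ORX+DHT against ORX it was 11, and 6 with all 9 libraries in 1 fit. In ORX+DHT against control it was 0, and 0 to 2 with a library left out (2 without control 1). Over all genes, leaving out control 1 gave 51 calls after orchiectomy and 66 for DHT-treated mice against controls, beside 5 and 3 with it, and the fit of all 9 libraries gave 23, 123 and 11 in the 3 comparisons.

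Whether the replicate numbers pair the samples is not settled by these values. The correlation of deviations between same-numbered libraries was -0.17, 0.06 and -0.11 for ORX against control. It was small but positive for ORX+DHT against ORX (0.06, 0.07 and 0.15). With the replicate number as a block, 0, 2 (Slc30a2 and Slc30a9) and 0 members were called in the 3 comparisons. Over all genes 5, 571 and 3 were called with the block, beside 5, 358 and 3 without it. Depth limits Slc30a6, Slc30a7, Mt1 and Mt2 most, with at most 23 reads in any library.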
